A study of Mus musculus with 18 samples.

Results

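The sites described here were occupied by PU.1 in pre-B cells and had next to no PU.1 reads left late in their conversion into macrophages. They were selected on the PU.1 reads themselves. In 200-bp bins of mm9 chromosomes 1 to 19, with reads moved 75 bp inward and scaled to 10000000 reads per library, a lost bin held 15 or more PU.1 reads at 0 hpi and 4 or less at both 24 and 48 hpi (hours post induction). This selected 708 of the 31440 bins that started at 15 or more, out of 11968110 bins of known sequence. Adjacent lost bins were joined, which gave 671 sites, of which 37 held 2 bins. The 17565 bins with 15 or more at 0, 24 and 48 hpi, called retained bins, served for comparison, and 13167 starting bins belonged to neither set.

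The cells were C10, a mouse pre-B cell line that carries C/EBPα fused to the hormone-binding domain of the estrogen receptor and marked with GFP (C/EBPα-ER), in which β-Est induces transdifferentiation into macrophage-like cells (iMΦ). Per the paper, induction also included growth with IL-3 and CSF-1. The 0 hpi libraries were uninduced C10 cells with the same fusion, so every group shared it. ChIP-seq libraries of PU.1 (5, at 0, 3, 12, 24 and 48 hpi), C/EBPα (8, with 10, 30 and 60 min added) and C/EBPβ (5) were used, with 1 library per factor and time point and no replicate and no control library. The PU.1 libraries held 6575348 to 11349746 reads, the C/EBPα libraries 5970869 to 24917810 and the C/EBPβ libraries 2903580 to 5844202. No test between libraries was possible, and all intervals are exact 95% intervals (Poisson for reads, Clopper-Pearson for shares) that cover counting error only. Those for shares treat bins as independent, although some lost bins touch, and do not measure the spread between libraries.

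PU.1 is an ETS-family transcription factor that both B cells and macrophages need. It binds purine-rich DNA around the core GGAA, alone or with partners, and its dose and partners differ between the lineages. In B cells PU.1 recruits IRF4 or IRF8 to composite ETS-IRF elements, first described in immunoglobulin light chain enhancers, and works beside the B-lineage factors EBF1 and E2A. In macrophages it sits at enhancers beside C/EBPα, C/EBPβ and AP-1. ChIP-seq of a cell population counts fragments, so that fewer occupied cells and weaker occupancy per cell cannot be told apart.

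Most of the lost sites with the highest PU.1 at 0 hpi carried letters of the ETS-IRF arrangement. Of the 12 highest, 7 held the composite letters GGAANNGAA on either strand, whereas 1 held the strong PU.1 sequence GAGGAAGT. Among all starting bins these letters were found in 15.5% and 20.4%, and among retained bins above 30 at 0 hpi in 18.1% and 25.9%. The shorter PU.1 letters GGAAGT were in 6 of the 12, and in 50.1% of starting bins. The 4 highest are shown to let the element be seen in place, on the plus strand of mm9, with capitals marking GGAANNGAA, GAGGAAGT, the EBF1 letters TCCCNNGGG, the E-boxes CAGGTG and CAGCTG, the RUNX letters TGTGGTT, the C/EBP letters TTGCNNAA, TGAGTCA of AP-1, TGTTTAC of FOXO and ATGCAAAT of OCT.
chr9:76212801-76213000 (nearest gene Hcrtr2): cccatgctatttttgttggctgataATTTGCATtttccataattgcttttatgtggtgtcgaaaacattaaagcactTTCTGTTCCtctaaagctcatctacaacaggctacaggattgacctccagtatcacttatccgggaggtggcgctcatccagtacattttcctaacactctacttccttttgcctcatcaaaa
chr7:28676001-28676200 (Zfp607): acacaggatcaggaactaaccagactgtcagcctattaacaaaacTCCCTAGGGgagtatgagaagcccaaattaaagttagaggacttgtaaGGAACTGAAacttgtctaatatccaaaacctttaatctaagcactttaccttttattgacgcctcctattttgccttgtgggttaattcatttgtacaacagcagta
chr8:83877601-83877800 (Inpp4b): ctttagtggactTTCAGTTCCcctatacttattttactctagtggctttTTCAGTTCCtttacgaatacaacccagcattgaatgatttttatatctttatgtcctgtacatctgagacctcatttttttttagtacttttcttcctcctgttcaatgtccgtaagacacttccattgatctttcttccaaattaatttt
chr16:85566801-85567000 (Cyyr1): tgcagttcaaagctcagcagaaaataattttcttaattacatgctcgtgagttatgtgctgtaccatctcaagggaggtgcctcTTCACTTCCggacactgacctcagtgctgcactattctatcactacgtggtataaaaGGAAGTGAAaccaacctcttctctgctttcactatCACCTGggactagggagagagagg
The bin at Inpp4b held the composite element at 2 places (TTCAGTTCC, the reverse strand), starting at bases 13 and 50 of the bin. The bin near Cyyr1 held it on opposite strands (TTCACTTCC and GGAAGTGAA) and an E-box behind. The bin near Zfp607 combined it (GGAACTGAA) with an EBF1 sequence, and the bin near Hcrtr2 with an OCT sequence. A match of letters is a description and no measured site.

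At the 4 highest sites the values at 3 and 12 hpi lay between those at 0, 24 and 48 hpi, which the selection had fixed. The bin 41.5 kb upstream of Hcrtr2, in intergenic sequence, held 63.8 scaled PU.1 reads at 0 hpi (95% interval 46.5 to 85.4), 41.1 at 3 hpi, 14.0 at 12 hpi, 2.64 at 24 hpi and 2.87 at 48 hpi. The bin 28.5 kb downstream of the TSS of Zfp607 held 61.0, 51.7, 21.5, 3.52 and 0.955 in the same order. The bin in an intron of Inpp4b, a phosphatase of phosphoinositide lipids, held 59.6, 33.5, 8.40, 0.881 and 1.91. The bin near Cyyr1 held 59.6 at 0 hpi and 14.0 at 12 hpi. The bin 20.4 kb from the TSS of Chst3 was as high at 3 hpi (56.3) as at 0 hpi (55.3) and stood at 8.40 at 12 hpi. The bin near 4731417B20Rik had 46.8 at 0 hpi and 12.2 at 3 hpi. The lowest value of the 12 at 12 hpi was that of the bin 62.1 kb upstream of Csrnp3, which went from 46.8 to 24.3 to 0.933, that is 1 read. The bin near Rps20 (58.1 at 0 hpi, 2.64 at 24 hpi, 0 at 48 hpi) touched a bin that stayed occupied with 20.1 at 48 hpi, so that it flanked a retained site.

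**Figure D1:**
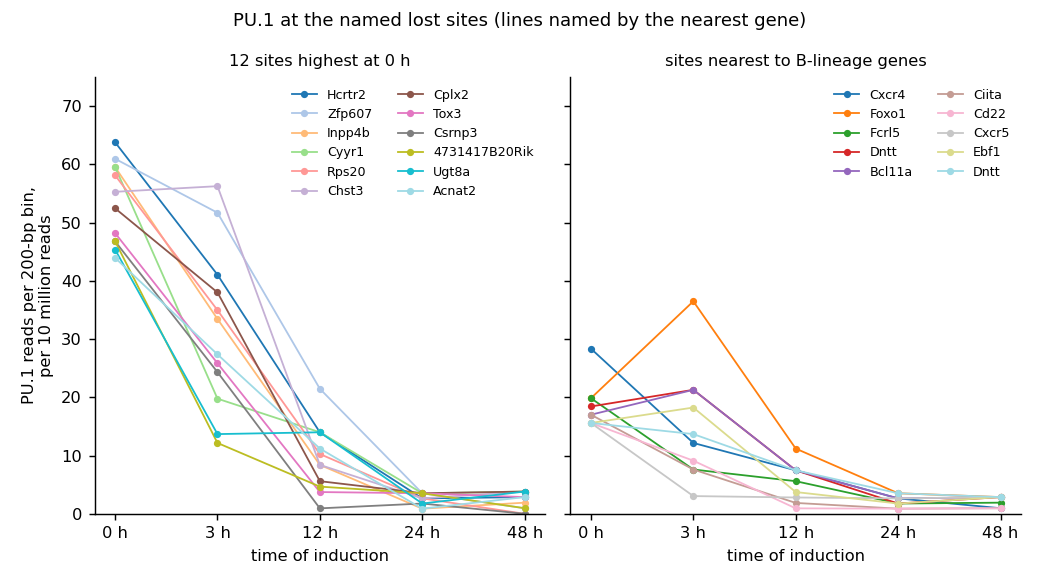
PU.1 reads per 200-bp bin and 10000000 reads (y axis) at each time of induction (x axis), 1 library per time point, for the 12 lost sites highest at 0 hpi (left) and the 10 lost sites nearest to B-lineage genes (right), with lines named by the nearest protein-coding gene. The sites on the left start between 44.0 and 63.8 and those on the right between 15.6 and 28.4, and all end at or below 3.82.

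Over all 708 lost bins the values at 0, 24 and 48 hpi were fixed by the selection and are given as a description. PU.1 had a median of 18.4 at 0 hpi (highest 63.8), 2.64 at 24 hpi and 1.91 at 48 hpi. The lowest starting value was 15.6, which is 11 reads, and 191 bins stood at it. A further 302 bins met the late limits but were 1 read short at 0 hpi (14.2), and 413 were 1 read over at 24 or 48 hpi only (4.41 and 4.78, against 3.52 and 3.82 just inside). Most lost bins were weak for PU.1 in pre-B cells, as the starting bins had a median of 25.5 and the retained bins a median of 36.9. The share of starting bins that met the rule was 2.25%.

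The values at 3 and 12 hpi took no part in the selection. In lost bins the median of PU.1 was 12.2 at 3 hpi and 7.47 at 12 hpi, in between the early and late values. The median of starting bins went from 25.5 to 28.9 and 29.9, and that of retained bins from 36.9 to 42.6 and 45.7. PU.1 was at or below 4 in 39 lost bins at 3 hpi (5.51%, 3.95 to 7.45%), against 0.534% of starting bins. By 12 hpi this held for 137 lost bins (19.4%, 16.5 to 22.5%), against 1.03% of starting bins. Among starting bins with 15 to 30 at 0 hpi, 0.877% were at or below 4 at 3 hpi and 1.69% at 12 hpi. A value of 0.5 times the 0 hpi value or less was seen in 257 lost bins at 3 hpi (36.3%, background 7.71%) and in 517 at 12 hpi (73.0%, background 12.1%). In starting bins with 15 to 30 at 0 hpi these shares were 10.8% and 11.8%. The ratio uses the 0 hpi value that chose the bins, so it is not independent of the selection and is given as a description. Over 4 at both 3 and 12 hpi were 547 lost bins (77.3%, background 98.5%), whereas 15 (2.12%, background 0.111%) were at 4 or less at both.

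Individual lost bins differed in their course. A steady order of 0 hpi over 3 hpi over 12 hpi was found in 428 (60.5%) compared with 23.6% of starting bins. This order uses the 0 hpi value that chose the bins, so it is not independent of the selection and is given as a description. At 3 hpi 123 lost bins (17.4%) were at or over their 0 hpi value, compared with 48% of starting bins. The same limit holds for this share. At 15 or more at 3 hpi were 284 lost bins (40.1%), compared with 83.2% of starting bins. At 12 hpi 48 (6.78%) were at 15 or more, compared with 81.2% of starting bins. Starting bins with 15 to 30 at 0 hpi had medians of 19.8 at 3 hpi and 21.5 at 12 hpi. Of these bins 72.3% were at 15 or more at 3 hpi and 70.5% at 12 hpi.

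**Figure D2:**
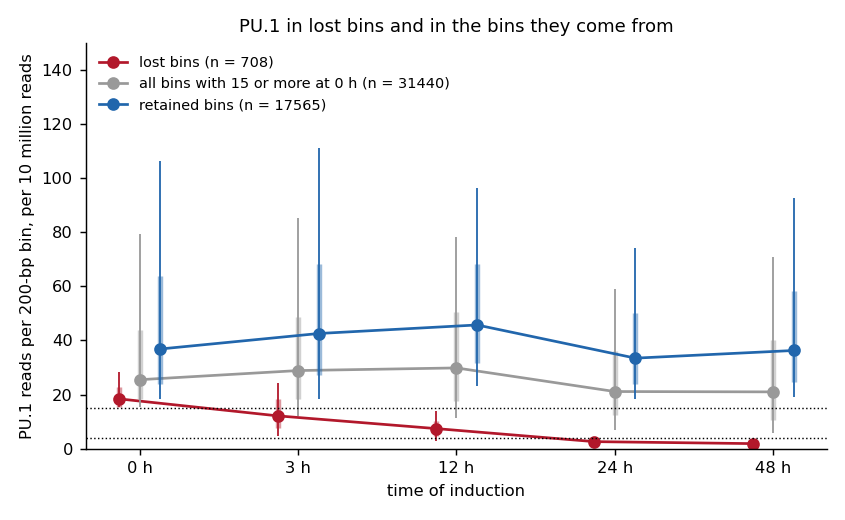
PU.1 reads per 200-bp bin and 10000000 reads (y axis, linear) at 0, 3, 12, 24 and 48 h of induction (x axis) in lost, starting and retained bins. Points are medians over bins, thick bars the quartiles and thin bars the range from the 10th to the 90th percentile, and dotted lines the limits of 15 and 4 that chose the lost bins at 0, 24 and 48 h, with the medians of lost bins passing from 18.4 through 12.2 and 7.47 to 1.91.

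At 3 hpi the mean of PU.1 in lost bins was 10.2 times that of their surroundings at 2 to 5 kb, and at 12 hpi it was 6.13 times. The ratios of 14.7 at 0 hpi, where the mean was 20.5, and of 2.00 and 1.90 at 24 and 48 hpi rest on values that chose the bins. The surroundings themselves hardly moved (1.39 at 0 hpi and 1.15 at 48 hpi). Reads came from both strands, with a median of 50.0% on the plus strand, and 31 bins had reads of 1 strand only. Most lost bins, 528 (74.6%), were not below either touching bin at 0 hpi, which was the case for 68.7% of retained bins. The other 180 were below a touching bin, and in 33 of them that bin was itself lost. The rest of the 180 flanked a higher bin that was not lost, so not every lost site was a separate peak. In 34 lost bins (4.80%) a touching bin held 15 or more PU.1 reads at 24 or 48 hpi, and in 589 (83.2%) both touching bins were below 8. The median distance to the nearest retained bin was 64700 bp.

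**Figure D3:**
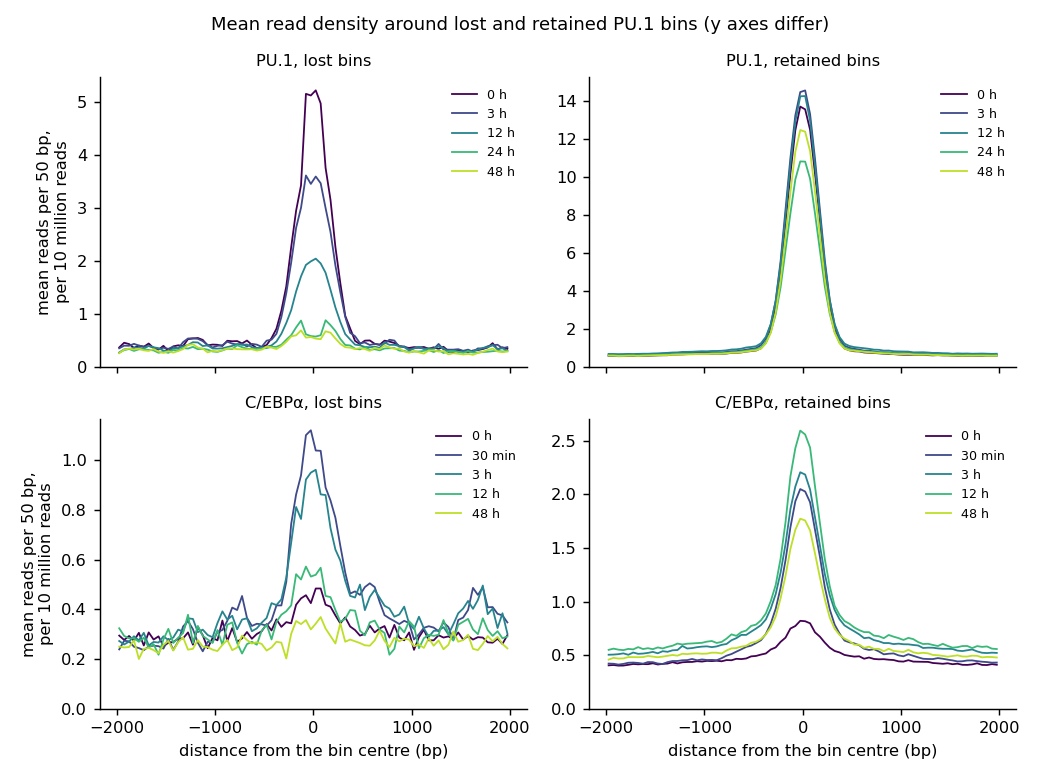
Mean read density per 50 bp and 10000000 reads (y axes, which differ between panels) within 2 kb of the bin centre (x axis) for PU.1 (top) and C/EBPα (bottom) at lost (left, n = 708) and retained (right, n = 17565) bins, 1 line per library. At lost bins PU.1 is highest at 0 h and C/EBPα at 30 min, and at 48 h both are nearer to their surroundings but above them (ratios of the 200-bp bins of 1.90 and 1.36). For PU.1 the values at 0, 24 and 48 h were fixed by the selection. PU.1 dips at 24 h at the centre, where the limit of 4 chose these bins, and the source of the dip was not tested.

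Lost bins lay far from promoters. Of the 708, 16 (2.26%, interval up to 3.64%) were within 1000 bp of the TSS of a protein-coding gene, compared with 14.6% of starting bins and 17.3% of retained bins. Their median distance to such a TSS was 38436 bp, against 14068 bp and 11192 bp. Over 50000 bp away were 305 lost bins (43.1%), against 23.3% and 19.1%. In the annotation 389 lost bins (54.9%) were intergenic, 303 (42.8%) intronic, 10 (1.41%) in a UTR, 3 (0.424%) in coding exons and 3 (0.424%) in exons of non-coding genes. Starting bins were 44.6% intergenic and 47.4% intronic, with 4.20% in a UTR, 2.26% in coding exons and 1.51% in exons of non-coding genes. Retained bins were 43.0% intergenic and 48.1% intronic. Restriction to bins with 15 to 30 at 0 hpi left the promoter share at 2.45% in lost and 21.5% in retained bins. The GC content moved along with the position, with medians of 44.5% in lost, 47.5% in starting and 48.5% in retained bins, and its part in these shares was not tested.

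Lost bins were scattered over the genome. They had 618 different nearest genes, and the share of starting bins that were lost ran from 1.49% on chromosome 19 to 3.35% on chromosome 6. Within 50 kb, touching bins left out, a lost bin had on average 2.86 other starting bins. The mean was 4.99 around starting bins as a whole and 5.48 around retained bins. No other starting bin was found around 260 lost bins (36.7%), against 18.4% of starting and 14.2% of retained bins. Of the starting bins within 50 kb of a lost bin 3.56% were lost too, compared with 1.29% around starting bins as a whole. Retained were 49.1% near lost bins, compared with 61.4% around starting bins as a whole.

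At B-lineage genes the lost bins were present but no more frequent than elsewhere. The gene lists covered pre-B cell receptor and recombination genes, B-lineage transcription factors, and B cell surface and signalling genes. Together 65 of their genes were nearest to a starting bin within 100 kb, with 520 starting bins, of which 11 (2.12%) were lost and 285 (54.8%) retained. The values over all starting bins were 2.25% and 55.9%. By list, lost bins were 2 of 112 at pre-B cell receptor and recombination genes, 3 of 241 at transcription factors and 6 of 167 (3.59%) at surface and signalling genes. None of the 137 starting bins at 31 myeloid and macrophage genes was lost, and 110 of them (80.3%) were retained. The exact interval for this count of 0 ends at 2.66%, above the background. T cell and NK cell genes and proliferation genes had 0 of 39 each, and erythroid and megakaryocyte genes 1 of 37, near the platelet chemokine gene Pf4. Gene expression was not part of these files. Among defining genes of the B lineage, Cd79a had 2 starting bins, Cd79b 10, Pax5 5, Blnk 11, Igll1 2 and Rag1 1, with 0 lost at each, Ebf1 had 20 with 1 lost, and Vpreb1 and Rag2 had none. Retained were 2 at Cd79a, 4 at Cd79b, 3 at Pax5, 6 at Blnk, 2 at Igll1, 1 at Rag1 and 5 at Ebf1. Of the defining macrophage genes, 5 of 7 (among them Csf1r and Itgam) had 27 starting bins with none lost and 22 retained. The PU.1 sites of uninduced cells thus stood at genes of both groups.

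The B-lineage genes that did have lost sites were Cxcr4, Foxo1, Fcrl5, Dntt, Bcl11a, Ciita, Cd22, Cxcr5 and Ebf1, with 10 sites in all. The sequences of the bins at Foxo1, Fcrl5 and Dntt, which were among the 4 highest, are given with capitals as before.
chr3:52068401-52068600 (Foxo1): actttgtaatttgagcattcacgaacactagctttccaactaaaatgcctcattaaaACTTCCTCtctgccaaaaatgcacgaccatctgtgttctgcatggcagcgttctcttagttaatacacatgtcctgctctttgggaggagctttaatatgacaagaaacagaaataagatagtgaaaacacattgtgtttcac
chr3:87260201-87260400 (Fcrl5): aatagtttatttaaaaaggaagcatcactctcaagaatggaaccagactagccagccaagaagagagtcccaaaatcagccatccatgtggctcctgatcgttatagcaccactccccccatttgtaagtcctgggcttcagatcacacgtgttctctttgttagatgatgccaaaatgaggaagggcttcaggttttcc
chr19:41096801-41097000 (Dntt): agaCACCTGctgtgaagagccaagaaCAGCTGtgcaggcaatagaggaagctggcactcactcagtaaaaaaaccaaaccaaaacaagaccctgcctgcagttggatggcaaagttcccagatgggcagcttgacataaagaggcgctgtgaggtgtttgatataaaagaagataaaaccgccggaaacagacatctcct
The Foxo1 bin held GAGGAAGT on the reverse strand, the Dntt bin both E-boxes, and the Fcrl5 bin none of the listed letters. Over the 10 sites, 2 held GAGGAAGT, 3 CAGGTG, 1 GGAANNGAA and 0 the EBF1 letters, and none of the 3 shown held GGAANNGAA.

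Foxo1 encodes a transcription factor that early B cell development and Rag expression need. The bin 3.76 kb upstream of it held 19.9 scaled PU.1 reads at 0 hpi (14 reads), then 36.5 at 3 hpi (24 reads), and 11.2, 3.52 and 2.87 later. The intervals at 0 and 3 hpi overlapped (10.9 to 33.3 and 23.4 to 54.3). A touching bin kept 37.3 at 48 hpi, so that this bin, too, flanked a retained site. C/EBPα at this bin was 2.26 at 0 hpi, 26.1 at 30 min, 19.4 at 60 min, 24.3 at 3 hpi and 0 at 24 and 48 hpi.

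Dntt encodes terminal transferase, which adds bases at V(D)J junctions, and 2 of its 5 starting bins were lost, at separate sites. The bin 6.87 kb upstream of its TSS went from 18.4 to 21.3, 7.47, 1.76 and 2.87, and the intronic bin 10.1 kb downstream of the TSS from 15.6 to 13.7, 7.47, 3.52 and 2.87. C/EBPα reached 13.1 at 30 min in the upstream bin and 21.5 in the intronic one, and stood at 2.51 and 3.77 at 48 hpi.

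Ebf1, whose product specifies the B lineage, had 20 starting bins within 100 kb with 1 lost and 5 retained, or 45 with 1 lost and 16 retained at any distance. The lost bin lay in an intron and went from 15.6 to 18.2, 3.73, 1.76 and 2.87. The bin nearest to Bcl11a, a gene for a zinc finger factor of early B cells, lay 58.3 kb from its TSS in an intron of the non-coding Gm12065 and had 17.0, 21.3, 7.47, 2.64 and 2.87. All 12 of its reads at 0 hpi were on the minus strand. The Ebf1 bin had 11 reads at 0 hpi, and in both bins the values at 0 and 3 hpi overlapped in their intervals.

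The bins at surface and signalling genes had lower values at 3 hpi than at 0 hpi, as had most lost bins. Cxcr4 encodes the chemokine receptor that holds precursors in bone marrow, and its lost bin went from 28.4 to 12.2, 7.47, 2.64 and 0.955. Fcrl5 (19.9, 7.60, 5.60, 1.76, 1.91), Ciita, the regulator of MHC class II genes (17.0, 7.60, 1.87, 0.881, 0.955), and Cd22, an inhibitory co-receptor of the B cell receptor (15.6, 9.12, 0.933, 0.881, 0.955), had the values given in brackets at 0, 3, 12, 24 and 48 hpi. Cxcr5, the receptor that guides B cells to follicles, had 15.6 and then 3.04 at 3 hpi, 2 reads. Each of these rests on 11 to 20 reads at 0 hpi, and the intervals at 0 and 3 hpi overlapped in all 5.

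The immunoglobulin κ locus held several lost bins. For the 3 around the constant exon the nearest protein-coding gene was Rpia, which flanks the locus, but they were placed by that exon, Igkc (chr6:70676429-70676751, plus strand). The bin chr6:70675801-70676000, 529 bp before Igkc in the intron that separates it from the joining segments, went from 17.0 to 13.7, 3.73, 2.64 and 1.91. This intron holds the intronic κ enhancer. The region downstream of the exon holds the 3′ κ enhancer, at which the joint binding of PU.1 and its IRF partner was described. At 8.75 kb downstream a lost bin went from 25.5 to 27.4, 12.1, 3.52 and 2.87, and at 9.15 kb another from 38.3 to 25.9, 3.73, 1.76 and 2.87. The bin in the middle, at 8.95 kb, was much higher, with 141.8 at 0 hpi, 112.5 at 3 hpi, 33.6 at 12 hpi, 9.69 at 24 hpi and 7.64 at 48 hpi. It missed the limit of 4 and is therefore not counted as lost. At 0 hpi all 18 reads of the bin before it were on the plus strand and all 27 of the bin behind it on the minus strand, so that these 2 lost bins were its flanks by strand rather than separate local peaks. By contrast, a bin 4.35 kb downstream of Igkc was retained, with 24.1 at 0 hpi, 41.1 at 12 hpi and 18.2 at 48 hpi. With 10 kb on either side, the κ locus had 23 starting bins with 5 lost and 3 retained, the heavy chain locus 24 with 1 lost and 6 retained, and the λ locus 10 with 0 lost and 3 retained. Over all starting bins 2.25% were lost and 55.9% retained, and the 5 at the κ locus include the 2 flanks.

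Apart from Rpia, 5 genes were nearest to 3 lost sites each. At Gm12824 4 of the 6 starting bins were lost and 0 retained, all in introns. Their highest bins per site had 18.4 to 22.7 PU.1 reads at 0 hpi. Auts2 had 3 lost of 16 starting bins, Med13l 3 of 26, Ndufa4 3 of 20 and Sh3bgrl2 3 of 8. At Sh3bgrl2 1 site had all 16 reads on the plus strand and the next all 11 on the minus strand, and 1 site of Ndufa4 had all 16 on the minus strand. This Ndufa4 site touched a bin with 17.2 at 48 hpi, and 1 site of Auts2 touched a bin with 15.3, so that both flanked bins still occupied late. The Ndufa4 sites lay 316 to 1272 kb from its TSS, so the name marks a gene-poor stretch rather than a gene.

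C/EBPα was present at some of the lost bins early and at almost none late. Its mean was 1.85 in lost bins at 0 hpi (1.75 to 1.96), 2.26 at 10 min, 4.30 at 30 min (4.17 to 4.44), 3.81 at 60 min, 3.70 at 3 hpi, 2.21 at 12 hpi, 1.49 at 24 hpi and 1.39 at 48 hpi (1.29 to 1.49). Over the surroundings this was 1.73 times at 0 hpi, 3.84 at 30 min and 1.36 at 48 hpi. Retained bins went from 3.21 to 7.94 at 30 min, on to 10.0 at 12 hpi, and were at 6.86 at 48 hpi. Thus C/EBPα in lost bins ended below its starting value, while in retained bins it ended above. The libraries of 10, 30 and 60 min were read on another sequencer with longer reads.

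Only a minority of lost bins contributed. With 10 or more scaled reads taken as C/EBPα signal, 8 lost bins had it at 0 hpi (1.13%, against 2.88% of starting bins), 25 at 10 min (3.53%, 5.68%), 64 at 30 min (9.04%, 12.4%), 62 at 60 min (8.76%, 12.4%) and 53 at 3 hpi (7.49%, 13.9%). The number was 32 at 12 hpi (4.52%, 20%), 4 at 24 hpi (0.565%, 11.9%) and 1 at 48 hpi (0.141%, 10.1%). At 30 min the interval of the lost bins ended at 11.4%. This is no test against the 12.4% of starting bins, which include the lost bins.

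**Figure D4:**
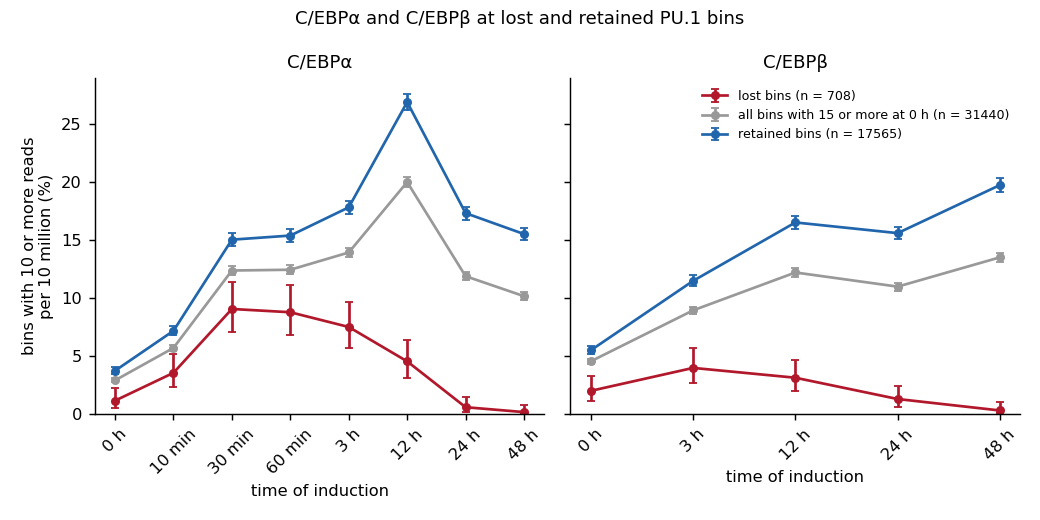
Share of bins with 10 or more scaled reads of C/EBPα (left) and C/EBPβ (right) (y axis, percent) at each time of induction (x axis, not to scale in time), with 95% Clopper-Pearson intervals for counting error. Lost bins reach 9.04% for C/EBPα at 30 min and 0.141% at 48 h, whereas retained bins reach 26.9% at 12 h and 15.5% at 48 h.

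C/EBPα signal at 30 min, 60 min or 3 hpi was found in 89 lost bins (12.6%), compared with 17.4% of starting bins. Of these 1 (1.12%) still had it at 48 hpi. Among bins with early C/EBPα it was still present in 43.6% of 5482 starting bins and 54.2% of 3767 retained bins. PU.1 in the 89 bins had medians of 18.4 at 0 hpi, 18.2 at 3 hpi and 7.47 at 12 hpi. In the other 619 lost bins the medians were 18.4, 12.2 and 7.47, so the split was seen at 3 hpi and not at 12 hpi. Starting bins as a whole had a like split at 3 hpi, with medians of 32.6 at 0 hpi and 44.1 at 3 hpi where C/EBPα came early and of 25.5 and 25.9 where it did not. The letters TTGCNNAA of C/EBP were found in 16.9% of the 89 and in 7.11% of the 619, and in 17.5% and 6.78% of starting bins split the same way. The bin 21.7 kb upstream of Nup160 had the highest C/EBPα at 3 hpi, 89.0, after 4.51 at 0 hpi, and was at 0 at 48 hpi. Its PU.1 went from 15.6 at 0 hpi to 42.6 at 3 hpi (intervals of 7.79 to 27.9 and 28.3 to 61.5), then to 17.7, 3.52 and 3.82. The bin near 4930523C07Rik had PU.1 at 31.2, 56.3, 20.5, 1.76 and 0.955, also highest at 3 hpi, but its intervals at 0 and 3 hpi overlapped. Its C/EBPα was 2.26, 37.7 and 3.77 at 0, 3 and 48 hpi. The bin near Nxph1 had 65.6 C/EBPα reads at 3 hpi and 3.77 at 48 hpi, and the intronic bin of Rad51l1 had 39.5 and 1.26.

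C/EBPβ, which macrophages express and which shares its binding sequence with C/EBPα, was low in the lost bins at every time point. Its mean was 2.16 at 0 hpi, 2.41 at 3 hpi, 1.70 at 12 hpi, 1.77 at 24 hpi and 1.65 at 48 hpi, against 3.87, 5.05, 5.53, 7.39 and 9.34 in retained bins. Signal of 10 or more was present in 14 lost bins at 0 hpi (1.98%, against 4.53% of starting bins), 28 at 3 hpi (3.95%, 8.92%) and 2 at 48 hpi (0.282%, 13.5%). These were a bin near Slc6a19 (23.6) and an intronic bin of Setd5 that was among the 5 highest for C/EBPα at 3 hpi. At Setd5 C/EBPβ went from 23.3 at 0 hpi to 102.4 at 48 hpi and C/EBPα from 21.4 at 0 hpi to 79.98 at 30 min and 12.6 at 48 hpi, whereas PU.1 went from 15.6 to 2.87. The C/EBPβ libraries were the smallest, and 1 read was worth up to 3.44 scaled reads, at 12 hpi.

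The sequence of lost bins differed from that of retained bins in the letters of PU.1 and its partners. GAGGAAGT, on either strand, was found in 74 lost bins (10.5%, 8.30 to 12.9%), 20.4% of starting bins, 23.3% of retained bins and 1.2% of all bins. The shorter GGAAGT, which it contains, was found in 33.8%, 50.1%, 55.0% and 11.3%. The core GGAA was present in 93.2% of lost and 87.5% of all bins and distinguishes little. Among bins with 15 to 30 at 0 hpi, GAGGAAGT was in 10.6% of lost and 19.4% of retained bins. Among bins not below a touching bin it was in 13.1% of lost and 30.5% of retained bins, and in 25.8% of such retained bins with 15 to 30. The gap was thus also seen within this range and at local peaks. Height was not fully matched within the range. Bins with and without early C/EBPα had 0 hpi medians of 17.7 and 17.0 when lost, and of 21.3 in both cases when retained. The share in lost bins was 5.56% with a late limit of 2 in place of 4, and 15.8% (31.0% in retained bins) when 50 bp on either side of the bin were searched too.

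The composite letters GGAANNGAA went the other way. They were found in 164 lost bins (23.2%), 15.5% of starting, 15.2% of retained and 6.40% of all bins. Among bins with 15 to 30 at 0 hpi the shares were 21.4% in lost and 11.0% in retained bins, and above 30 they were 44.4% of 54 lost bins (30.9 to 58.6%) and 18.1% of retained bins. With bins offset by 100 bp the shares above 30 were 33.3% of 57 lost bins (21.4 to 47.1%) and 18.3% of retained bins. The EBF1 letters TCCCNNGGG were in 61 lost bins (8.62%, 6.65 to 10.9%), 4.83% of starting, 4.46% of retained and 1.87% of all bins. With bins offset by 100 bp the share in lost bins was 5.93% (4.33 to 7.91%), which no longer excluded that of the retained bins (4.48%). The E-box CAGGTG, which E2A and other factors recognise, was in 149 lost bins (21.0%), 13.7% of starting, 11.8% of retained and 12.0% of all bins, whereas CAGCTG was in 11.4%, 12.6%, 12.7% and 7.37%. Retained bins were thus at the genome's share for CAGGTG and lost bins above it.

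Letters of partners in macrophages were not more frequent in lost bins. TGAGTCA of AP-1 was in 2.97% of lost, 5.58% of retained and 3.14% of all bins, and the C/EBP letters TTGCNNAA in 8.33%, 8.97% and 9.28%. RUNX letters TGTGGTT were in 7.34% of lost and 6.04% of retained bins, ATGCAAAT of OCT in 1.69% and 1.3%, TGTTTAC of FOXO in 2.54% and 2.70%, and TGGGAA, recognised by Ikaros, in 19.1% and 18.1%, and in these 4 the interval of the lost bins included the share of the retained bins. None of GAGGAAGT, GGAANNGAA, TCCCNNGGG and CAGGTG was found in 353 of the lost bins (49.9%). This share was not counted in the other sets, so it is not read as a trait of lost bins. Overlaps are possible by construction, since GGAANNGAA can share its GGAA with GAGGAAGT and GGAAGT.

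**Figure D5:**
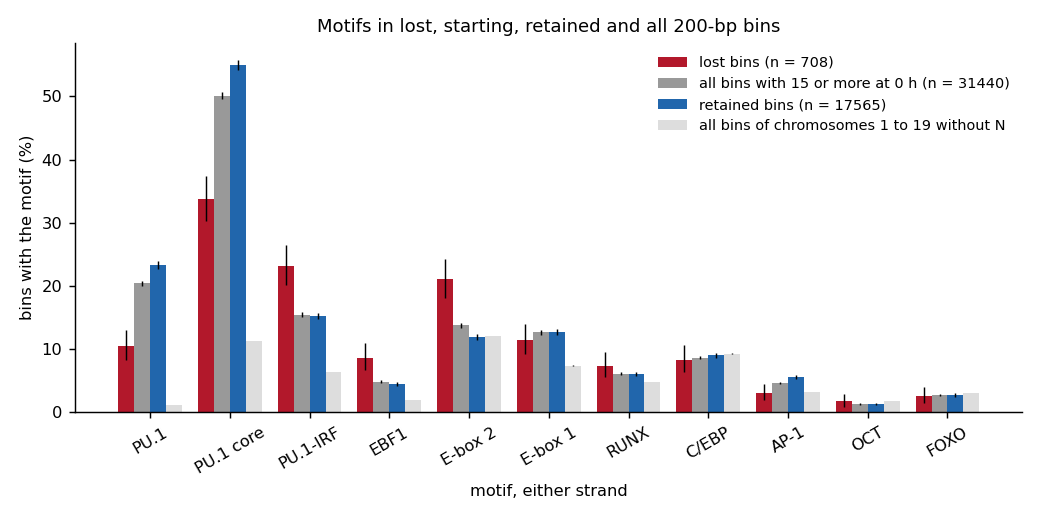
Share of 200-bp bins (y axis, percent) that hold each motif on either strand (x axis) among lost, starting, retained and all bins, with 95% Clopper-Pearson intervals. E-box 1 is CAGCTG, E-box 2 CAGGTG, PU.1 GAGGAAGT, PU.1 core GGAAGT and PU.1-IRF GGAANNGAA. Lost bins are below retained bins for PU.1 (10.5% and 23.3%) and above for PU.1-IRF, EBF1 and E-box 2 (23.2%, 8.62% and 21.0% against 15.2%, 4.46% and 11.8%). With bins offset by 100 bp, not drawn here, EBF1 letters were in 5.93% of lost bins (4.33 to 7.91%) and 4.48% of retained bins.

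Ratios to the 0 hpi value, which the selection used, are given by motif as a description. The median ratio of 3 hpi to 0 hpi was 0.626 over all lost bins, 0.520 in the 74 with GAGGAAGT, 0.660 in the 164 with GGAANNGAA, 0.536 in the 61 with the EBF1 letters and 0.603 in the 149 with CAGGTG. By 12 hpi the ratios were 0.376, 0.439, 0.368, 0.384 and 0.329.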

How the data were processed

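The deposited ChIP-seq files are unnormalised and list 1 read per line with its mm9 position and strand. Per the paper, perfect matches from 1 of 2 aligners (ELAND or Bowtie) were used, and the authors removed reads with several genomic locations as well as duplicates. In 5 of the C/EBPα libraries 5382 to 287019 deposited reads nevertheless repeated the position and strand of another. Aligner versions and the aligner of each library were not given in the sources used here. The paper names the PU.1 reads at 0 hpi as merged without saying from what, and they were taken as 1 library. Reads on unplaced contigs were left out.

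In each library 1 read per position and strand was kept, 5′ ends were moved 75 bp inward, reads were counted in 200-bp bins of chromosomes 1 to 19 and scaled to 10000000 reads on placed chromosomes, sex chromosomes included. Lost bins, motifs and gene lists were chosen with earlier results of these data known. The bins were annotated with GENCODE vM1 and the sequence of the same build (NCBIM37), and coordinates count from 1. The protein-coding TSS nearest to the bin centre named the gene, within 100 kb for the gene lists. Motifs were exact matches inside the bin on either strand. Named were the 12 sites with the most PU.1 at 0 hpi, those nearest to B-lineage or myeloid genes (10 sites), the 5 with the most C/EBPα at 3 hpi, and genes with 3 or more sites. Sequences were shown for the 4 highest of the first group and for 3 of the 4 highest of the B-lineage group. The remaining sequence and 1 of the B-lineage marker genes are not reported here. The bins around Igkc were added after their values were seen. The counting and selection were tested on simulated data. Python 3.11.15, numpy 2.4.6, pandas 2.3.3, scipy 1.17.1 and matplotlib 3.10.9 were used.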

Additional observations from a re-analysis of the deposited data

How the results depend on the processing

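Values under other settings were compared with the reported ones, where a count within 1.5 times and a share or median within its 95% counting interval (for medians widened by 1 read) was taken as alike. This held for 100 of 114 values. Scaling to reads of chromosomes 1 to 19 or to reads outside PU.1-rich bins, thinning the PU.1 libraries to the smallest, moving ends by 50 or 100 bp, and keeping all reads as deposited changed none beyond these bounds, with 698 to 761 lost bins. A start of 20 or more left 232 lost bins at 219 sites, with a PU.1 median of 16.7 at 3 hpi and 13.4% at 4 or less at 12 hpi. A late limit of 2 left 162 bins at 156 sites, with a PU.1 median of 5.60 at 12 hpi, 29.6% at 4 or less at 12 hpi and GAGGAAGT in 5.56%. A C/EBPα minimum of 15 at 3 hpi gave 4.66%. Searching 50 bp beyond each bin gave GAGGAAGT in 15.8% and TCCCNNGGG in 11.7%, and bins offset by 100 bp gave TCCCNNGGG in 5.93%, for which the cause was not tested. Restriction to bins not below a touching bin at 0 hpi, chosen after seeing the data, gave GAGGAAGT in 13.1%. Restriction to bins whose touching bins were below 8 late (589 bins), or whose reads were 20 to 80% plus-strand (546 bins), was also chosen after seeing the data and moved no value beyond its bounds. No library could be left out and no paired analysis was possible because each time point had 1 library, and 11 reads at 0 hpi sufficed for the weakest lost bins.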

Other observations

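On chromosome X, which the selection did not cover, 23 of 591 bins with 15 or more PU.1 reads at 0 hpi met the same limits at 24 and 48 hpi (3.89%). Their PU.1 medians were 18.4 at 0 hpi, 13.7 at 3 hpi, 6.53 at 12 hpi, 2.64 at 24 hpi and 1.91 at 48 hpi.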
